A study of Sus scrofa with 6 samples.

Results

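Transcripts of 5 receptor genes, OXTR, CALCRL, CYSLTR2, PPYR1 and CCR9, were followed in pig (Sus scrofa) blastocysts. A blastocyst is the hollow embryo before implantation, made of an outer trophectoderm and an inner cell mass. The genes were taken by symbol from the platform annotation, which names 178 of the 20400 probes, and each has 1 probe. They were chosen from the array ratios described here, with earlier results on the same ratios known, so their differences between RNA samples are descriptions without a test. All 3 RNA samples came from blastocysts labelled day 5 (day 5 to 6 in the design text), and the labels give no treatment, strain, sex or number of pooled embryos. RNA sample 2 was set against RNA sample 1 on arrays 1 and 2, RNA sample 3 against RNA sample 2 on arrays 5 and 6, and RNA sample 3 against RNA sample 1 on arrays 3 and 4. Within each pair of arrays the Cy5 and Cy3 dyes were exchanged. The RNA was amplified in a T7 polymerase reaction of 2 rounds before it was labelled.

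All 5 genes encode membrane receptors that signal through heterotrimeric G proteins. OXTR binds oxytocin and is best known from the uterus and mammary gland, where it raises intracellular calcium. CALCRL is a receptor of the secretin family that reaches the cell surface with a RAMP protein, and the RAMP partner sets whether it responds to calcitonin gene-related peptide or to adrenomedullin. CYSLTR2 binds cysteinyl leukotrienes, lipid mediators made from arachidonic acid. PPYR1, also called NPY4R, is a neuropeptide Y family receptor that prefers pancreatic polypeptide. CCR9 is the receptor for the chemokine CCL25 and guides lymphocytes to the thymus and small intestine. 

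Each deposited value is the log2 ratio of the channels of 1 array. Its direction is not stated, and it was read as Cy5 over Cy3, because the labels list Cy5 first. With the opposite reading every signed difference below changes sign, and every number or dye effect given for a channel belongs to the other channel. On each array 1.02% to 64.3% of the probes had a ratio that was a whole number, its reciprocal or 1. Such ratios were read as those of a channel without signal and counted as not measured, although measured channels can give one too. All 5 receptors were among the 5431 probes (56 of them with a symbol) measured on all 6 arrays, a condition that was part of their choice. Ratios were centred on the median of these 5431 probes, which was -2.50 on array 1 and between -0.92 and 0.45 on the other arrays, so a centred difference is relative to the median probe. Of the markers of the blastocyst listed for a label check, KLF4, GATA6 and LIF had a probe (3 of 13), and none of the 3 was measured on all arrays. Ratios between blastocyst RNA samples cannot show whether a marker is present.

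The receptors followed 3 patterns. In centred values, RNA sample 2 held the lowest level of OXTR and CALCRL and the highest of CYSLTR2 and PPYR1. CCR9 lay close to the median probe on average, although its differences on arrays 1 and 2 were 0.93 and -0.92. The pattern of OXTR and CALCRL was one of centred values: before centring, their differences in the pairs with RNA sample 2 lay between -0.74 and 0.65, while the median probe read higher in RNA sample 2 on each of those arrays. For CYSLTR2 and PPYR1 the deposited ratios ran the same way as the centred ones on every array of the pairs with RNA sample 2.

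OXTR, the oxytocin receptor, had a centred log2 difference between RNA samples 2 and 1 of -3.23 on array 1 and -0.04 on array 2. The first value lies at the 2.45 percentile of the tested probes of array 1 and the second at the 48.3 percentile of array 2, so array 1 alone carried the difference. As deposited, the same differences were -0.74 and 0.42. OXTR had 0.24 on array 5 and 1.56 on array 6 for RNA samples 3 and 2, and the deposited differences were -0.15 and 0.65. Array 6 set it at the 95.7 percentile of the tested probes, against 63.0 on array 5. Arrays 3 and 4, which compare RNA samples 3 and 1, went opposite ways, with -1.08 on array 3 and 0.99 on array 4.

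CALCRL, the receptor shared by adrenomedullin and calcitonin gene-related peptide, had -3.16 on array 1 and -0.34 on array 2 between RNA samples 2 and 1. As for OXTR, array 1 carried most of the centred difference, and the deposited differences of -0.66 and 0.11 had opposite signs. Its arrays for RNA samples 3 and 2 were close to each other, with 0.84 on array 5 and 1.04 on array 6. This gap of 0.20 was smaller than the median gap of 0.84 over the tested probes. In deposited values CALCRL had 0.45 and 0.12 there. For RNA samples 3 and 1 it had -0.75 on array 3 and 0.44 on array 4, again in opposite directions.

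CYSLTR2, the leukotriene receptor, was higher in RNA sample 2, against RNA sample 1, by 1.60 on array 1 and 1.20 on array 2. The arrays of this pair differed by 0.40, against a median gap of 1.05 over the tested probes. In the pair of RNA samples 3 and 2 it had -4.33 on array 5 and -0.54 on array 6. The value of array 5 lies at the 0.534 percentile of its tested probes and that of array 6 at the 36.5 percentile. The gap of 3.79 exceeded that of 99.1% of the tested probes in this pair, so the size of the CYSLTR2 difference was set by array 5. The pair of RNA samples 3 and 1 gave 0.31 on array 3 and -0.35 on array 4.

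PPYR1, the pancreatic polypeptide receptor, was higher in RNA sample 2, against RNA sample 1, by 2.91 on array 1 and 0.89 on array 2. These values lie at the 98.0 and 80.6 percentiles of the tested probes. It had -1.15 on array 5 and -2.62 on array 6 for RNA samples 3 and 2, at the 17.3 and 2.52 percentiles. As deposited, these 4 differences of PPYR1 were 5.40 on array 1, 1.34 on array 2, -1.54 on array 5 and -3.53 on array 6, each of the same sign as its centred value. RNA samples 3 and 1 differed by -0.07 on array 3 and -0.44 on array 4, with the same sign on both.

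CCR9, the chemokine receptor, had centred differences of 0.93 on array 1 and -0.92 on array 2 between RNA samples 2 and 1. These cancel to an average of 0.004. Its arrays for RNA samples 3 and 2 had -0.21 (array 5) and -0.07 (array 6), and those for RNA samples 3 and 1 had 0.27 (array 3) and -0.30 (array 4). No array placed CCR9 below the 12.1 or above the 77.5 percentile of its tested probes.

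**Figure D1:**
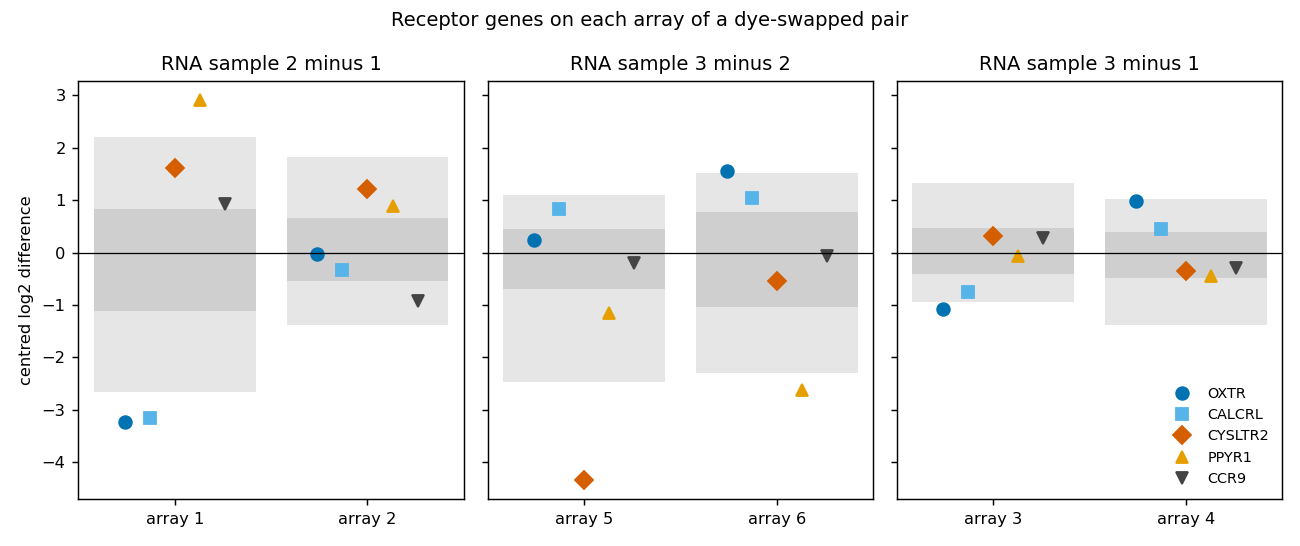
Centred log2 difference of the 5 receptors (vertical axis, log2 units) on both arrays of each dye-swapped pair (horizontal axis); pale grey boxes span the 5th to 95th percentile and darker boxes the middle 50% of the 5431 tested probes. OXTR (-3.23) and CALCRL (-3.16) lie below the pale box on array 1 and near the centre on array 2, and CYSLTR2 lies far below the box on array 5 (-4.33) but inside the darker box on array 6 (-0.54).

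The ratios are those of whole numbers, which makes part of the channel signal behind each value readable. On each array 95.3% to 98.9% of the measured ratios equalled that of 2 whole numbers up to 5000 within a relative tolerance of 1e-09. The smallest such numbers are given below. The channel signals may have been any common multiple of them in a unit that the sources used here do not give, so they are lower limits on signal in that unit, show no spot to be dim and do not compare receptors. Channels are named on the reading as Cy5 over Cy3, and with the opposite reading the numbers of each array change places between its RNA samples.

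For OXTR the numbers were smallest in the pair of RNA samples 2 and 1. Array 1 gave 3 for RNA sample 2 and 5 for RNA sample 1, and array 2 gave 4 and 3. At a number of 3, a step of 1 moves the log2 ratio by 0.42. Among the tested probes with such numbers, the larger one was at or under that of OXTR for 0.861% of 5112 on array 1 and 0.546% of 5129 on array 2. On the other 4 arrays the OXTR numbers lay between 55 and 249. Array 5 gave 55 for RNA sample 3 and 61 for RNA sample 2, and array 6 gave 177 and 113. If these OXTR numbers are the signals themselves, its values on arrays 1 and 2 rest on dim spots.

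For CALCRL, array 1 gave 12 for RNA sample 2 and 19 for RNA sample 1, and array 2 gave 179 and 166. On array 1, 6.92% of the tested probes with such numbers had a larger number at or under the 19 of CALCRL. In the pair of RNA samples 3 and 2, CALCRL had 229 and 168 on array 5 and 232 and 213 on array 6. Those of RNA samples 3 and 1 were 203 and 375 on array 3 and 710 and 461 on array 4.

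For CYSLTR2, the small numbers stood on arrays 1 and 5, in the channels without RNA sample 2 (in those with it, on the opposite reading). Array 1 gave 103 for RNA sample 2 and 6 for RNA sample 1, and array 5 gave 5 for RNA sample 3 and 132 for RNA sample 2. A step of 1 in the smaller number moves the log2 ratio by 0.22 on array 1 and 0.26 on array 5. The dye-swapped arrays had no small number, with 355 for RNA sample 2 and 113 for RNA sample 1 on array 2, and 203 for RNA sample 3 and 557 for RNA sample 2 on array 6. On these arrays, where both numbers were larger, the centred differences of CYSLTR2 were 1.20 and -0.54.

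For PPYR1, array 1 gave 677 for RNA sample 2 and 16 for RNA sample 1, and array 2 gave 359 and 142. Array 5 gave 35 for RNA sample 3 and 102 for RNA sample 2, and array 6 gave 16 and 185. On array 6, 4.33% of the tested probes with such numbers had a smaller number at or under the 16 of PPYR1. In the pair without RNA sample 2, PPYR1 had 183 for RNA sample 3 and 211 for RNA sample 1 on array 3, and 621 and 745 on array 4.

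For CCR9 the smallest number was 21, on array 1, which gave 226 for RNA sample 2 and 21 for RNA sample 1. On the other arrays its numbers lay between 72 and 579.

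**Figure D2:**
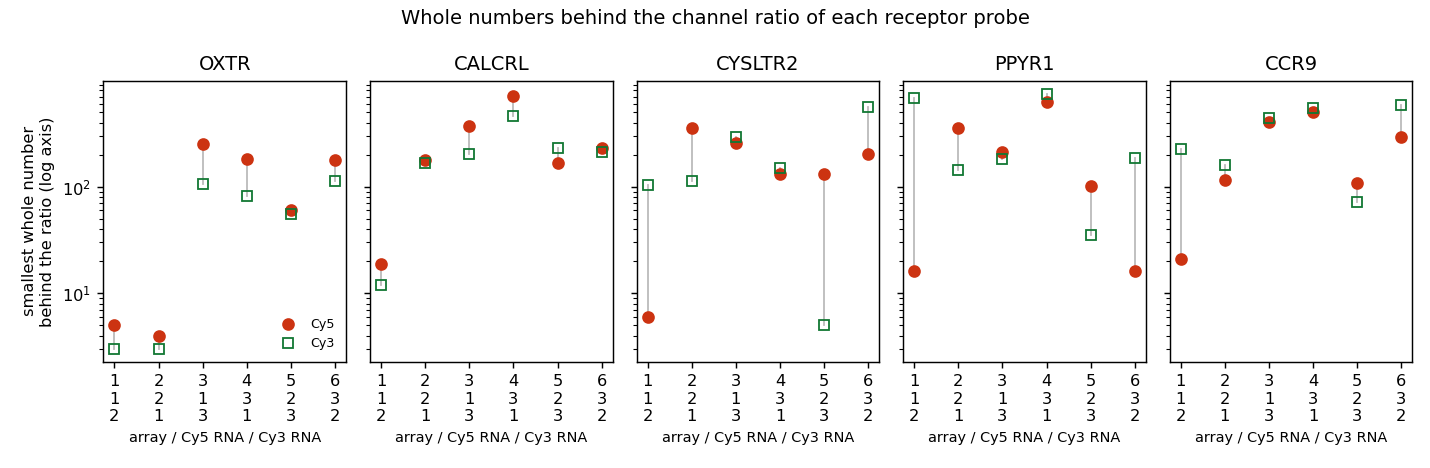
Smallest whole numbers behind the ratio of each receptor probe (vertical log axis) on arrays 1 to 6 (horizontal axis, with the RNA sample in Cy5 and that in Cy3 under each array number); red dots are Cy5, green open squares Cy3. OXTR has numbers of 3 to 5 on arrays 1 and 2. CYSLTR2 has 6 on array 1 and 5 on array 5, in the channels without RNA sample 2 if ratios are Cy5 over Cy3.

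The ratio moved with the size of the numbers on arrays 1, 3, 4 and 6. From the smallest to the largest of 10 bins of number size, the median centred ratio went from 0.63 to -1.07 on array 6. It went from 0.28 to -0.55 on array 3 and from 0.33 to -0.62 on array 4. On array 1 it fell from 0.82 to -0.51 in bin 7 and was 0.20 in the largest bin. On arrays 2 and 5 the bin medians lay between -0.12 and 0.23. The 500 tested probes of array 1 nearest to OXTR in the mean log2 of the pair of numbers had a median 0.77 above the array median, and those nearest to CALCRL 0.45 above it, both in the direction of the OXTR and CALCRL values. Against these probes the differences between RNA samples 2 and 1 on array 1 were -2.46 for OXTR and -2.71 for CALCRL. On array 6 the probes nearest to OXTR lay 0.72 above the array median, and against them its difference between RNA samples 3 and 2 was 0.85 in place of 1.56. The ratios were also centred along number size by loess, a setting chosen after seeing the data. The fitted difference of OXTR was then -0.82 between RNA samples 2 and 1 (reported fit -1.41). Between RNA samples 3 and 2 it was 0.69 (reported fit 1.13). In these comparisons CALCRL had -1.30 and 1.02, CYSLTR2 1.80 and -2.18, PPYR1 1.88 and -2.05, and CCR9 0.02 and -0.03. The numbers are in lowest terms, so the place of OXTR along number size may be too low. The 500 probes nearest to PPYR1 on array 6 had a median 0.58 above the array median, opposite to the PPYR1 value, which became -3.20 against them. For CYSLTR2 on array 5 the nearest probes had a median 0.06 above that of the array, and its value against them was -4.27. The part of spot brightness in these differences was not tested.

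**Figure D3:**
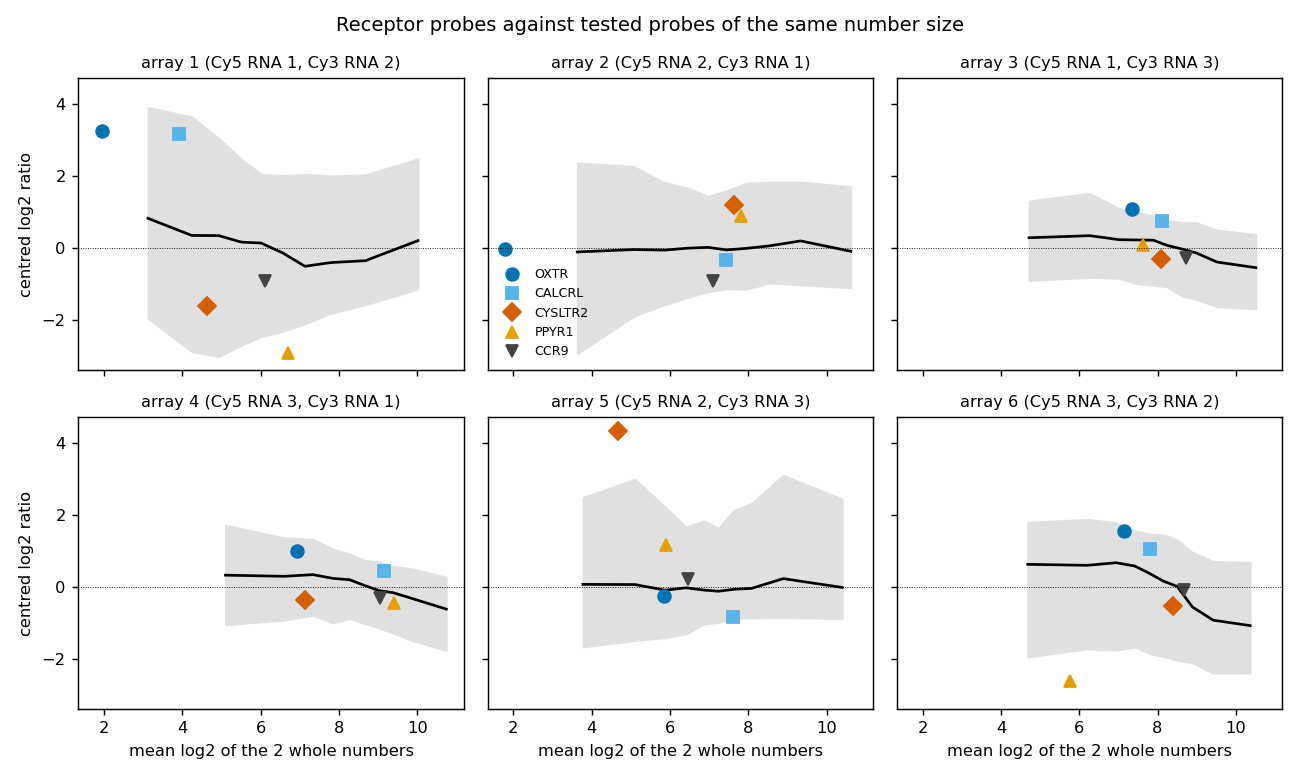
Centred log2 ratio, Cy5 over Cy3 (vertical axis), against the mean log2 of the 2 whole numbers (horizontal axis) on each array; the line is the median and the grey band the 5th to 95th percentile of the tested probes in 10 bins of equal size. On array 1 OXTR (3.23) and CALCRL (3.16) lie left among small numbers, and on array 5 CYSLTR2 (4.33) lies far above the band.

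Averages over the dye-swapped arrays were joined into 1 fit of the loop in limma, in which a difference draws mostly on its own pair of arrays and also on the other pairs. All probes received 1 common variance, so every fitted difference has a standard error of 0.43. This error comes from how far the pair averages fail to add up around the loop, taken over all tested probes. The gap between the arrays of a pair does not enter it, nor the calls below. Between RNA samples 2 and 1 the fitted log2 difference was -1.41 for OXTR, -1.53 for CALCRL, 1.74 for CYSLTR2, 1.81 for PPYR1 and 0.04 for CCR9. In folds these are 2.65-fold lower for OXTR and 2.89-fold lower for CALCRL in RNA sample 2, and 3.34-fold higher for CYSLTR2 and 3.50-fold higher for PPYR1. The CCR9 value was the median of all tested probes, at place 2716 of 5431. At the threshold of an adjusted p of 0.05, 4 of the 5 receptors were called, 2 of them high and 2 low in RNA sample 2. Of all tested probes 19.5% were called, 10.8% high and 8.73% low. The receptors were chosen on these differences, so nothing is read from their share.

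For RNA sample 3 minus RNA sample 2 the fitted log2 difference was 1.13 for OXTR, 1.16 for CALCRL, -2.10 for CYSLTR2, -1.97 for PPYR1 and -0.10 for CCR9. These correspond to 2.19-fold and 2.23-fold higher in RNA sample 3 for OXTR and CALCRL, and to 4.28-fold and 3.93-fold lower for CYSLTR2 and PPYR1. Again 4 of the 5 receptors were called, 2 high and 2 low, where 20.7% of all tested probes were called, 6.06% high and 14.6% low. With both comparisons joined, CYSLTR2 and PPYR1 were called above both other RNA samples in RNA sample 2, as were 8.65% of all tested probes, and OXTR and CALCRL below both, as were 4.7%. An F test over the 3 RNA samples called 21.8% of all tested probes. Both comparisons share RNA sample 2 and the fit draws on all arrays, so the opposite signs are not independent of each other. The 5 receptors had a median difference of 0.04 in RNA sample 2 against RNA sample 1, as did all tested probes (0.04). Their median in RNA sample 3 against RNA sample 2 was -0.10, against -0.004 over all tested probes.

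For RNA sample 3 minus RNA sample 1 the fit called none of the 5 receptors, and 0.203% of all tested probes. Their fitted log2 differences were -0.28 for OXTR, -0.37 for CALCRL, -0.36 for CYSLTR2, -0.17 for PPYR1 and -0.06 for CCR9, all smaller than the standard error. The averages of arrays 3 and 4 alone ran from -0.26 for PPYR1 to -0.02 for CCR9. With the 3 levels of a gene set to a mean of 0, OXTR had -0.85 in RNA sample 2, 0.28 in RNA sample 3 and 0.56 in RNA sample 1, and CALCRL had -0.90, 0.26 and 0.64 in the same order. CYSLTR2 had 1.28 in RNA sample 2, -0.82 in RNA sample 3 and -0.46 in RNA sample 1, and PPYR1 had 1.26, -0.71 and -0.55. RNA samples 1 and 3, neighbours in each order, thus did not differ beyond the standard error of the reported fit for any of the 5 receptors. For CYSLTR2 this difference was -1.11 (SE 0.68) without array 3 and 0.24 (SE 0.41) without array 5, and for PPYR1 it was 0.20 (SE 0.38) without array 3. Over all tested probes, the centred differences of arrays 3 and 4 ran opposite ways, with Pearson's r of -0.63. It was 0.20 for arrays 1 and 2 and 0.40 for arrays 5 and 6. Averages near 0 on arrays 3 and 4 thus do not show that RNA samples 1 and 3 are alike.

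Centring decided the size of these differences. Without it every fitted difference between RNA samples 2 and 1 was higher by 1.21 and every one between RNA samples 3 and 2 was lower by 0.92. OXTR then had -0.20 and 0.21 in these comparisons and CALCRL -0.32 and 0.24, while CYSLTR2 had 2.95 and -3.02, PPYR1 3.01 and -2.89, and CCR9 1.25 and -1.02. Uncentred, calls between RNA samples 2 and 1 split into 2172 high and 10 low in RNA sample 2, against 585 and 474 with centring. The split for RNA samples 3 and 2 was 5 higher and 1406 lower, against 329 and 794.

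Single arrays decided part of the values. PPYR1 had 1.50 to 1.99 for RNA sample 2 minus 1, and -2.10 to -1.79 for RNA sample 3 minus 2, when 1 of the 6 arrays was left out and the other 5 were fitted singly with a dye term. Without array 5 CYSLTR2 had -0.91 for RNA sample 3 minus 2, and 1.15 for RNA sample 2 minus 1. Without array 1 OXTR had -0.92 and CALCRL -0.91 between RNA samples 2 and 1. Of the 12 alternatives tried, PPYR1 lay past the threshold in 8 for RNA sample 2 minus 1 and in 9 for RNA sample 3 minus 2, and CYSLTR2 in 4 and 7. CALCRL did so in 2 and 0, and OXTR in 0 and 1. Over all probes fitted, calls ran from 0 with all probes to 2182 uncentred for RNA sample 2 minus 1. For RNA sample 3 minus 2 they ran from 0 to 1411 uncentred. The receptors were chosen on these differences and the threshold moved with the setting, so nothing is read from their counts.

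**Figure D4:**
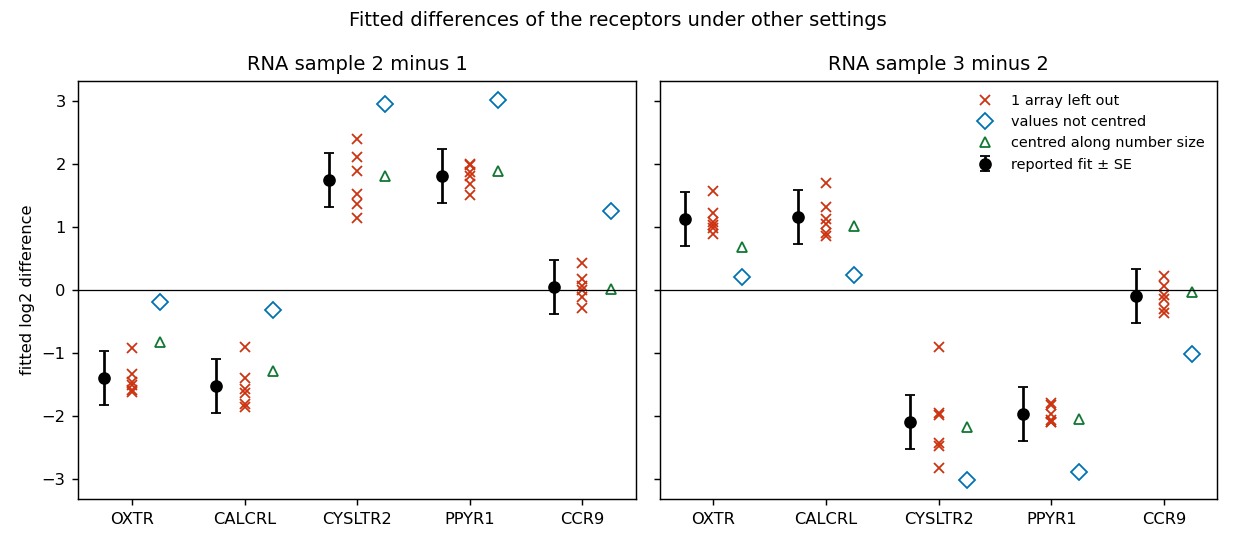
Fitted log2 difference of each receptor (vertical axis) between RNA samples 2 and 1 (left) and 3 and 2 (right); black dots with bars are the reported fit and its standard error of 0.43, red crosses the fits with 1 array left out, blue diamonds the uncentred values and green triangles the values centred along number size. OXTR and CALCRL approach 0 uncentred (-0.20 and -0.32 on the left), and PPYR1 has the narrowest set of crosses among the 4 receptors away from 0.

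How well the dye-swapped arrays matched was measured in each pair. Both arrays had the same sign for 4 of the 5 receptors between RNA samples 2 and 1, against 57.3% of all tested probes. All 5 did so between RNA samples 3 and 2, against 61.8%, and PPYR1 alone did so between RNA samples 3 and 1, against 25.2%. The receptors were chosen on these ratios, so nothing is read from the counts, which are those of centred values. As deposited, arrays 1 and 2 had opposite signs for OXTR (-0.74 and 0.42), CALCRL (-0.66 and 0.11) and CCR9 (3.43 and -0.47). Arrays 5 and 6 did for OXTR (-0.15 and 0.65). CYSLTR2 and PPYR1 kept the same sign in both pairs. OXTR had a gap between arrays of 3.20 between RNA samples 2 and 1, larger than in 93.9% of tested probes, and CALCRL one of 2.82, larger than in 91.5%. PPYR1 had gaps of 2.02, 1.46 and 0.37 in the pairs 2 and 1, 3 and 2, and 3 and 1. CCR9 had 1.85, 0.14 and 0.57.

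The mean of the unturned arrays of a pair is the dye effect of a probe. It is made of the same array values as the differences on which the receptors were chosen, so it is given as a description, with no test. OXTR read higher in Cy5 in every pair, by 1.60 in the pair 2 and 1, 0.66 in the pair 3 and 2 and 1.04 in the pair 3 and 1. Its mean dye effect of 1.10 ± 0.27 exceeded that of 94.6% of tested probes in size, and it was 0.86 without array 1. The ± values are standard errors of the limma fit over the 3 pairs, drawn towards a variance shared by all tested probes. They are thus not the plain spread of a gene's pair values, and can be smaller where its pairs disagree. CALCRL had 0.70 ± 0.30 and positive values in all 3 pairs. PPYR1 read lower in Cy5 in all 3 pairs, with -0.64 ± 0.27. CYSLTR2 had 0.45 ± 0.40, with 1.90 in the pair 3 and 2 and -0.20 and -0.33 in the others, and CCR9 had -0.38 ± 0.28. Over all 5431 tested probes, limma called a dye effect for 1 (0.0184%), and 27.1% had an unadjusted p under 0.05.

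**Figure D5:**
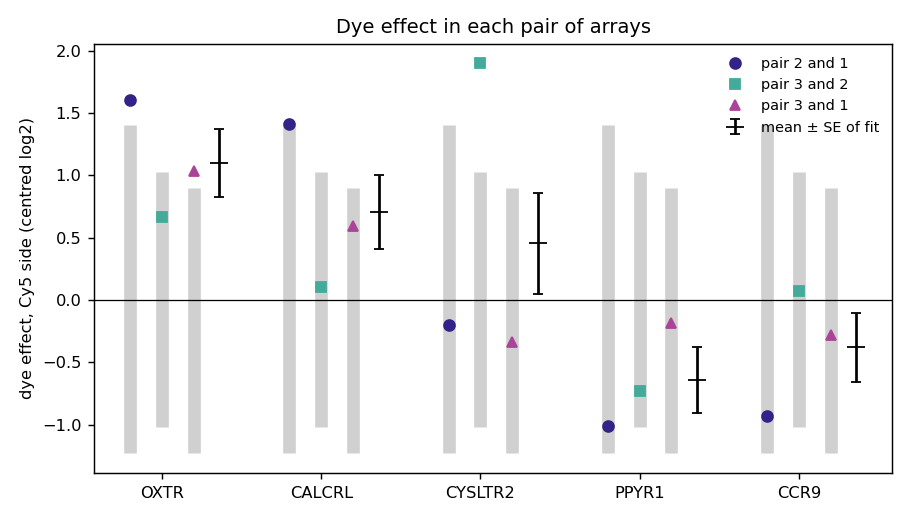
Dye effect of each receptor (vertical axis, centred log2 units, positive where Cy5 read higher) in each pair of arrays (coloured symbols) with the fitted mean and its standard error (black); grey bars span the 5th to 95th percentile of the tested probes in that pair. OXTR is positive in all 3 pairs (1.60, 0.66 and 1.04) and PPYR1 negative in all 3, while CYSLTR2 has 1.90 in the pair 3 and 2 alone.

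The loop of 3 pairs also gives a check within each gene, since the pair averages of 2 minus 1 and 3 minus 2 should add up to that of 3 minus 1. The sum missed it by -0.68 for OXTR, -0.66 for CALCRL, -1.01 for CYSLTR2, 0.27 for PPYR1 and -0.12 for CCR9. The median size of this miss over all tested probes was 0.65, so CYSLTR2 lay above it and PPYR1 and CCR9 below it.

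OXTR and CALCRL had like profiles over the 6 arrays, with a root mean square difference of 0.44 in centred log2 ratio and Pearson's r of 0.99. CYSLTR2 and PPYR1 differed by 1.65, with r = 0.77. The median distance to the other named genes was 1.59 for PPYR1 and 2.08 for CYSLTR2. PPYR1 was nearer to CCR9 (1.56, r = 0.24) than to CYSLTR2, so CYSLTR2 and PPYR1 did not have closely like profiles. These points share arrays, dyes and centring, so the correlations are descriptions. Among the other 51 named genes that were tested, those nearest to OXTR were OBP, an odorant-binding protein (0.68, r = 0.91), and PSMB8, an immunoproteasome subunit (0.71, r = 0.85). CALCRL was nearest to OBP (0.62, r = 0.89) and to LAMP1, a lysosomal membrane protein (0.68, r = 0.93). CYSLTR2 had no close match, with SULT1E1, an oestrogen sulfotransferase, at 1.46 (r = 0.82) and CYP8B1, a bile acid hydroxylase, at 1.48 (r = 0.90). CYP8B1 was nearest to PPYR1 (0.90, r = 0.90), followed by HCRT, the orexin precursor (0.91, r = 0.85). CCR9 was nearest to PRL, prolactin (0.32, r = 0.67), and SLC17A1, a phosphate transporter (0.36, r = 0.54).

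Other genes of the same pathways were few on the annotated part of the array. None of 16 listed ligands or ligand-making enzymes had a probe with that symbol, so oxytocin, adrenomedullin, pancreatic polypeptide, CCL25 and the leukotriene enzymes are not analysed here. After the annotation had been seen, 11 other peptide ligand precursors were found among its symbols, of which POMC and HCRT were measured on all arrays. HCRT, the orexin precursor, was called low in RNA sample 3 against RNA sample 2 (-1.22, adjusted p = 0.0272 in limma), with -0.44 on array 5 and -2.45 on array 6. In this comparison 14.6% of all tested probes were called low. The list was made with earlier results of these data known, so the HCRT call is a description. POMC, the precursor of melanocortins, was called in no comparison. Of 130 listed partners and other G protein-coupled receptors, 7 had a probe, and 6 more receptors were found among the platform symbols after the annotation had been seen. Of these 13 receptors, 5 were measured on all arrays, against all 5 members by choice. The other 8 receptors failed on array 1 in every case, on array 2 in 6 cases and on array 5 in 5, and never on arrays 3, 4 or 6.

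The 5 tested receptors were MC1R, the melanocortin receptor of pigment cells, XCR1, a chemokine receptor of dendritic cells, OPN1SW, a cone opsin, RXFP4, a receptor for insulin-like peptides, and HRH4, a histamine receptor. None passed the threshold in any comparison, where 19.5% of all tested probes passed for RNA sample 2 minus 1 and 20.7% for RNA sample 3 minus 2. MC1R had the largest fitted log2 difference of the 5 between RNA samples 2 and 1, 0.81 (adjusted p = 0.165 in limma), and -0.83 between RNA samples 3 and 2 (adjusted p = 0.158 in limma). Among receptors measured on fewer arrays, SSTR2, a somatostatin receptor, had 0.99 on array 5 and 1.04 on array 6 between RNA samples 3 and 2, and HTR1F, a serotonin receptor, had 0.58 and 1.40. AVPR2, the vasopressin receptor related to OXTR, was measured between RNA samples 3 and 1 alone as a pair, with 0.44 on array 3 and 0.63 on array 4. GNAS, the stimulatory G protein subunit, had -0.40 and -0.15 in that pair.

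CCR9 lies in a cluster of chemokine receptor genes. In the RefSeq gene order of assembly Sscrofa11.1, CXCR6 is 2 protein-coding genes away, XCR1 3 and CCR2 6, and all 3 have a probe. For RNA samples 3 and 2, CCR9 had -0.21 on array 5 and -0.07 on array 6, CXCR6 had -0.79 and -1.07, and XCR1 had -0.13 and -0.99. In the pair of RNA samples 3 and 1 the averages were -0.02 for CCR9, 0.03 for CXCR6, -0.05 for XCR1 and 0.01 for CCR2. The arrays of CCR2 had opposite signs in that pair. Of the other receptors, OXTR had 1 annotated probe within 10 genes on either side, LMCD1, and CALCRL, CYSLTR2 and PPYR1 had none.

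Among markers of cells that carry these receptors elsewhere, TYROBP, a myeloid adaptor protein, and CD4, a T cell coreceptor, had a probe (2 of 8 immune markers), and neither was measured on all arrays. TYROBP had 0.40 on array 5 and 1.21 on array 6 between RNA samples 3 and 2, and CD4 had -0.77 and 1.85. INHA of granulosa cells was called high in RNA sample 2 against RNA sample 1 (1.58, adjusted p = 0.0037 in limma), with 4.50 on array 1 and 0.38 on array 2. In this comparison 10.8% of all tested probes were called high. The array 1 ratio of INHA is that of 255 for RNA sample 2 and 2 for RNA sample 1. INHA was not called between RNA samples 3 and 2 (-0.43, adjusted p = 0.492 in limma), where arrays 5 and 6 had 0.15 and 0.71, opposite in sign to the fit. SAL1 of the oviduct and uterus list had -0.23 between RNA samples 2 and 1 (adjusted p = 0.742 in limma). Between RNA samples 3 and 2 it had 0.17 (adjusted p = 0.804 in limma). FSHR, the other granulosa marker with a probe, was measured as a pair between RNA samples 3 and 1 alone, with -0.88 on array 3 and 0.77 on array 4. The part of other cells in the receptor values was not tested, and fewer cells of a type cannot be told apart from less RNA per cell.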

How the data were processed

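The deposited table gives 1 log2 ratio of the 2 channels per probe and array, for 20400 probes on 6 arrays. The extract protocols state, per the labels, a kit for minute amounts of RNA, 2 rounds of amplification and chemical coupling of Cy3 or Cy5. The scanner, background correction, scale, centring and direction of the deposited values have no statement in the sources used here. The scale was read from the values, the columns proved uncentred, and the direction is unknown. A ratio within a relative tolerance of 1e-05 of a whole number or its reciprocal counted as not measured. The 5431 probes (26.6%) measured on all arrays were centred on their array median, dye-swapped arrays were turned and averaged, and the 3 averages went into lmFit and eBayes of limma 3.58.1 under R 4.3.3, leaving 1 residual degree of freedom per probe. The dye effect was an intercept over the 3 unturned pair means. Benjamini-Hochberg adjustment ran over all tested probes, with a threshold of 0.05. Alternatives were uncentred values, the 6 arrays fitted singly plus a dye coefficient, equal spread of arrays, all probes, centring on all probes measured on each array, leaving out each array, and loess along number size, which was chosen after seeing the data. The fit was tested on simulated data with independent noise on each array. That tests the code and not whether the fit suits these arrays. Gene symbols came from GEO's platform annotation: all 178 annotated probes have 1 symbol, and 20222 probes are unnamed here. All 178 gene IDs matched RefSeq's Sscrofa11.1 gene table, used for gene order alone. The receptors and gene lists were chosen with earlier results of these data known. Other named genes are the 2 nearest to each receptor in root mean square difference over the arrays, and the genes of the lists with a probe. All arrays hold 1 group, and the number of arrays limits the precision. In the reported fit, p-values of differences reflect how well the 3 pair averages add up around the loop over all tested probes. They do not count the gap between the arrays of a pair.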

Additional observations from a re-analysis of the deposited data

Results flagged for a closer look

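On the 6 arrays, 18 measures were examined for a value far from the others, 15 of them on the 5 receptors, and chance sets about 1 in 20 such measures apart. The smaller whole number of PPYR1 was 621 on array 4, against 16 to 183 on the other 5 arrays. It belongs to the channel of RNA sample 3 if ratios are Cy5 over Cy3, and to that of RNA sample 1 otherwise. The numbers are in lowest terms. No receptor's centred log2 ratio was flagged in this way. The rule sets a receptor's arrays against each other and not against other probes. Among the tested probes of array 5, CYSLTR2 lay at the 0.534 percentile.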

How the results depend on the processing

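Of 180 values of the receptor differences under alternatives, 158 moved by no more than the SD between the arrays of the pair, 22 moved by more, and none past the threshold in the reported fit turned its sign. The fit of single arrays and that of all probes leave these values as they are by construction. The SD is large where the arrays of a pair disagree, so the count does not show that a value is stable. For OXTR between RNA samples 2 and 1 it was 2.26, and -1.41 against -0.20 uncentred counted as unmoved. For CALCRL between RNA samples 3 and 2 it was 0.14, and 1.16 against 0.94 with equal spread counted as moved. Of 60 dye effects of the receptors, 1 turned its sign (CYSLTR2, with -0.14 without array 5 and up to 0.83 without another single array) and that of OXTR was 0.86 without array 1. Counts of called probes moved more. Fits with an array left out also used single arrays with a dye coefficient, so they compare with the single array counts. The loess ran on 4843 probes, of which the reported centring called 955, 955, 1, 983 and 1 in the order of the results below. Between RNA samples 2 and 1 the 1059 calls became 2182 uncentred, 306 with single arrays, 589 when centred on all probes measured on an array, 185 with loess, and 0 with all probes (2368 at an unadjusted p under 0.05 in limma), and 9 to 476 with an array left out. Between RNA samples 3 and 2 the 1123 calls became 656 with single arrays, 332 with loess and 0 with all probes (1862 unadjusted in limma), and 0 to 1317 with an array left out. Between RNA samples 3 and 1 the 11 calls became 108 with equal spread, 3 when centred on all probes measured on an array, and 0 uncentred, with single arrays, with loess, with all probes (108 unadjusted in limma) and without any 1 array. The F test over the 3 RNA samples had 1184 calls, 463 with single arrays, 185 with loess, 0 with all probes (1482 unadjusted in limma), and 0 to 870 with an array left out, the 0 without array 5. The dye test's 1 call became 447 when centred on all probes measured on an array, 0 uncentred, with equal spread, loess or all probes (1358 unadjusted in limma), and 0 to 801 with an array left out, the 801 without array 1. In limma the other counts of 0 stand beside 72 to 1549 probes at an unadjusted p under 0.05. The cause was not tested.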
